A study of Rattus norvegicus with 72 samples.

Results

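The endothelial genes described here are Emcn, Vwf, Egfl7, Pecam1, Kdr, Cdh5 and Tek, taken as every probe that the array table names for these genes by symbol, by sequence accession or by gene identifier. They are 7 of the 15963 named genes and 9 of the 41012 distinct probes on the array, since Vwf and Cdh5 have 2 probes each and Tek, Kdr, Egfl7, Pecam1 and Emcn have 1. The samples were medial collateral ligaments, the band of connective tissue at the inner side of the knee, from adult male Sprague-Dawley rats. RNA was labelled with Cy5 or Cy3 and hybridised to rat whole-genome Agilent arrays, on which each colour held a sample of its own.

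Severed ligaments were collected on days 1, 2, 4, 7, 10 and 14 after the ligament was cut under isoflurane, with buprenorphine against pain. Sham ligaments were collected on the same days from rats that were operated on at both knees under the same drugs but whose ligaments were left intact. Both operated groups held 5 columns on days 1, 2, 4, 10 and 14, and 3 columns on day 7. Cultured fibroblasts (5 columns, passages 3 to 7) were grown out of several pooled ligaments by collagenase digestion. They are thus successive passages of 1 stock and not separate animals. Their p-values rest on 1 spread per probe, pooled over all groups of the fit. These p-values do not measure the spread between separate cultures. Unmanipulated ligaments from rats without an operation gave 5 columns, and a commercial universal rat reference RNA gave 3 columns in each colour. All columns of unmanipulated ligament and of fibroblasts were in Cy5. Severed samples of days 1 and 4 carried Cy3 and those of days 2, 7, 10 and 14 carried Cy5, with the sham samples in the other colour. For day 2 this follows the column headers, and the labels give the opposite colours.

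Of the 72 columns, 29 pairs shared an array, and each shared array held 1 severed and 1 sham column or both colours of the reference. Gene spots above background (the 95th percentile of the 314 negative control spots of the same column) made up 5.63% to 99.8% of a column, with a median of 36.8%. Blocks of rows that did not follow the other columns were treated as missing, which removed 5.64% of values from 11 columns. The 1 column at 99.8% (severed day 7 replicate 2) was among them, so severed day 7 gives 2 values for each of these probes. Unmanipulated replicate 3 and sham day 1 replicate 3 were closer to each other than the colours of 1 reference RNA on 1 array (standard deviation of the log2 difference 0.289, against 0.323 to 0.358), and the results with unmanipulated ligament are given without them as well. The labels speak of 5 animals per group and time without tying them to columns, so each column is taken as 1 sample and p-values measure the spread between columns.

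Endothelial cells line blood and lymph vessels, and the 7 genes encode proteins that mark them. Kdr is the main signalling receptor for vascular endothelial growth factor, and Tek is the receptor of the angiopoietins. Cdh5 (vascular endothelial cadherin) and Pecam1 hold neighbouring endothelial cells together, Emcn is a mucin-like glycoprotein of the endothelial surface, Vwf is a secreted clotting protein that endothelial cells store in granules and platelets also carry, and Egfl7 is a secreted protein that endothelial cells lay down around themselves. An intact ligament has few vessels, and vessels grow into it after injury.

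Promoters of 3 of the 7 genes were found in the RefSeq table for the rat build GRCr8, and they are shown because Egfl7 passed between days in the comparisons described below, and Kdr and Emcn were lower in culture. Each window runs from 250 bases before to 50 bases after the start of the gene, on the plus strand as listed, 5′ to 3′. Capitals mark AGGAAG or its reverse complement CTTCCT, letters bound by ETS factors, a family whose members Erg and Fli1 are active in endothelial cells. Emcn lies at chr2:228564289-228564588, Egfl7 at chr3:29805381-29805680 (the first of 2 listed starts) and Kdr at chr14:32571813-32572112.
Emcn: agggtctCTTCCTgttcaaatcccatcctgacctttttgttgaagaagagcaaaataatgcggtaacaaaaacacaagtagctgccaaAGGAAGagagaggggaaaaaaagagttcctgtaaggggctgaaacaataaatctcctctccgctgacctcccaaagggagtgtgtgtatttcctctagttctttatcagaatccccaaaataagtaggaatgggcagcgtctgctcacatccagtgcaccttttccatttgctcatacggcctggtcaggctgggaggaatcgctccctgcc
Egfl7: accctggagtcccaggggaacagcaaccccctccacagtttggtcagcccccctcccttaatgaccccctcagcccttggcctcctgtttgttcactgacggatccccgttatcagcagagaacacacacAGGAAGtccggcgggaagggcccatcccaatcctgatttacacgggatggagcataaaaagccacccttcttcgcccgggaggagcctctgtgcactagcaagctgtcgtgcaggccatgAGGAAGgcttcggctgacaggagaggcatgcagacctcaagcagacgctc
Kdr: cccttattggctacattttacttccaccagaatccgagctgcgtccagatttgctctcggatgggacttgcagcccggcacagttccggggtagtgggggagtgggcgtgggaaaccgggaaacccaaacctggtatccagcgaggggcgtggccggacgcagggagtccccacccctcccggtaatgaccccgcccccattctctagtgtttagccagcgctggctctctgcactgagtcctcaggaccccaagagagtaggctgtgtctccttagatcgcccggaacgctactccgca
The Emcn window held 2 matches, 1 on each strand, the Egfl7 window held 2, and the Kdr window held 0. The window of the second listed Egfl7 start, at chr3:29808051-29808350, held 0 as well. The motif was present in 11549 of 33469 promoters of the same length (34.5%), so a match in a window is common and is given as a description only.

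Kdr, Egfl7 and 1 Vwf probe were measured in nearly all ligaments, Emcn in some, and the other 5 probes lay near background. Egfl7 was above background in 56 of 56 ligament columns with a value, Kdr in 55 of 57 and the brighter Vwf probe in 49 of 55. Emcn was above background in 32 of 57 ligament columns, Pecam1 in 22 of 59, the Cdh5 probes in 21 of 57 and 13 of 55, the dimmer Vwf probe in 15 of 56 and Tek in 13 of 57. Values below are log2 of quantile-normalised intensity with a floor of 50 before the log (5.64 on the log2 scale), and a level is not comparable between probes. Each ligament column is RNA of a whole tissue, in which fewer cells of a type and less RNA per cell cannot be told apart.

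**Figure D1:**
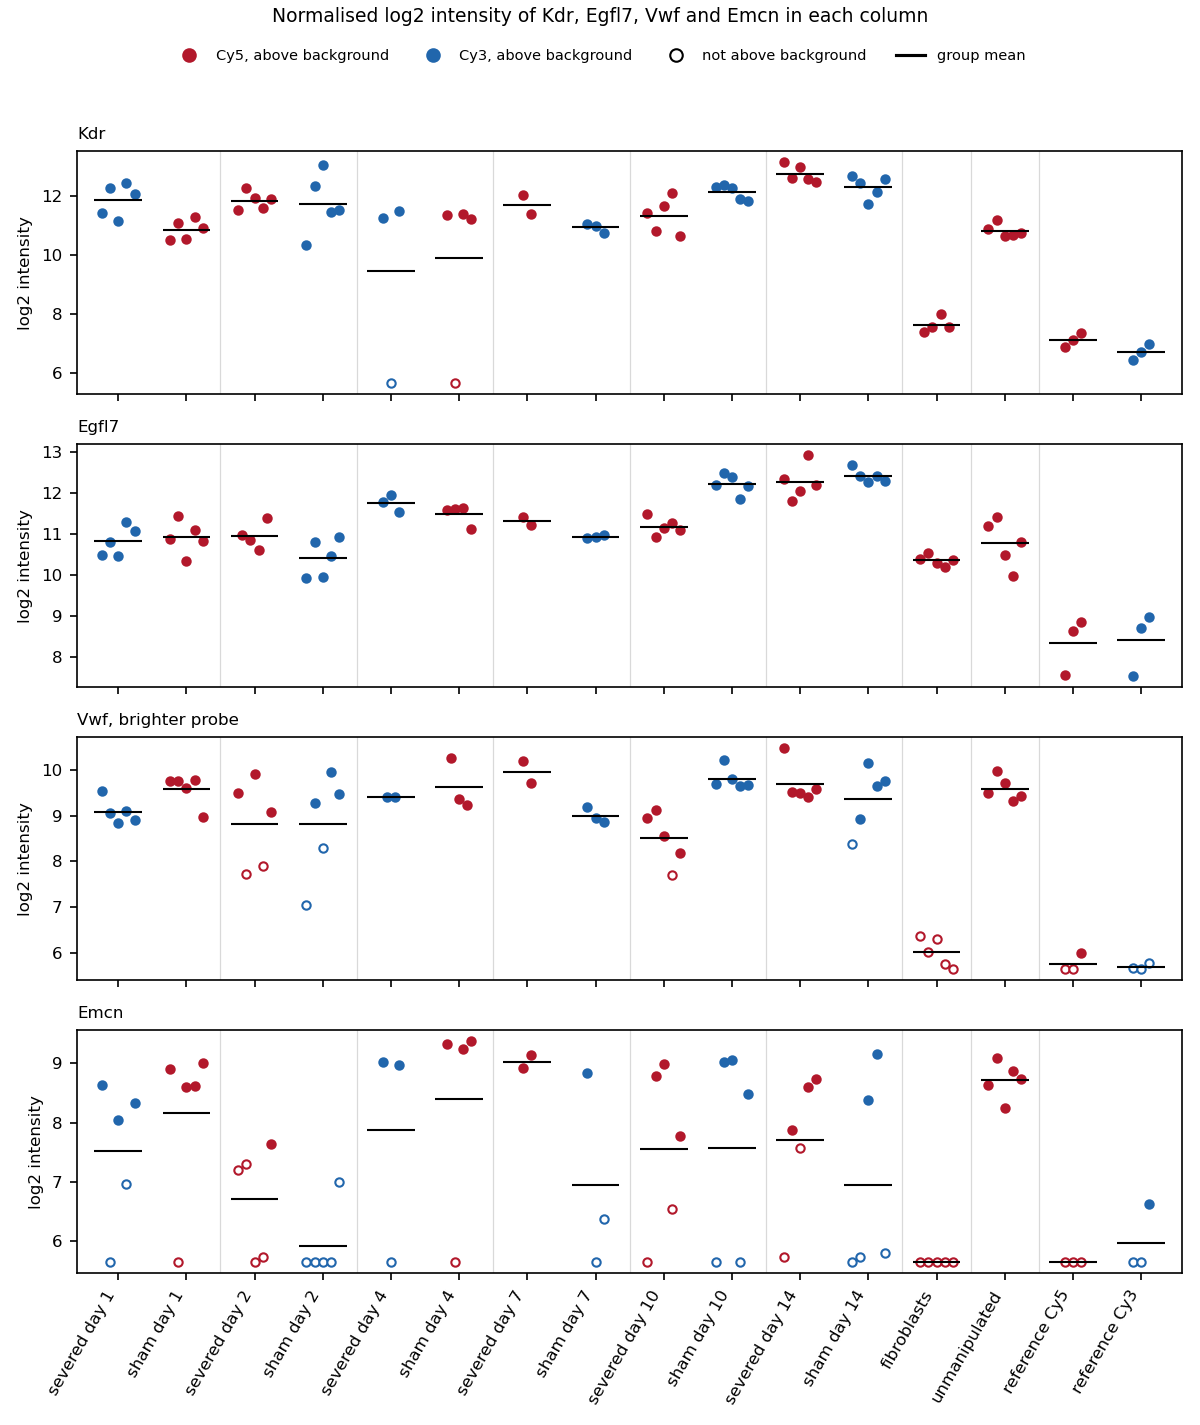
Normalised log2 intensity (vertical axes) of the 4 brighter probes, for Kdr, Egfl7, Vwf and Emcn, in every column of each group (horizontal axis). Red points are Cy5 columns and blue points Cy3 columns, open points are not above background, and bars are group means. Fibroblasts sit below every unmanipulated ligament for Kdr, Vwf and Emcn, and Egfl7 lies between 10.21 and 10.55 there.

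Against unmanipulated ligament, cultured fibroblasts had lower Vwf, Kdr and Emcn. Egfl7 was above background in 5 of 5 fibroblast columns, and its difference did not pass. The 5 fibroblast columns had Vwf at 6.37, 6.01, 6.29, 5.75 and 5.64, against 9.49, 9.98, 9.71, 9.33 and 9.44 in unmanipulated ligament. No fibroblast column was above background for this probe, and Vwf was estimated to be at least 11.1-fold lower in fibroblasts (measured means 6.01 ± 0.32 and 9.59 ± 0.26, SD, n = 5 each, limma adjusted p = 3.6e-11). Fibroblast column 1 had a background limit of 1340, against 54 to 81 in the others, with 10.7% of gene spots above it. In it 36 of 89 blocks defined by array position did not follow the other columns. A value not above background says little there, so each "at least" fold for fibroblasts is an estimate and not a strict bound.

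Kdr stood at 7.39, 7.55, 7.99 and 7.54 in the 4 fibroblast columns with a value, all above background, and at 10.88, 11.16, 10.62, 10.66 and 10.72 in unmanipulated ligament. The groups did not overlap, and the difference was −3.19 ± 0.68 (SE) on the log2 scale, 9.14-fold lower in fibroblasts (limma adjusted p = 0.00064). Emcn was at the floor in all 5 fibroblast columns, against 8.63, 9.09, 8.24, 8.87 and 8.74 in unmanipulated ligament. It was at least 6.52-fold lower in fibroblasts (limma adjusted p = 0.0040). These 3 differences passed the threshold of 0.05 in each of 15 processing alternatives and in each of 66 fits that left out 1 column. Without unmanipulated replicate 3 and sham day 1 replicate 3 they were −3.54 for Vwf, −3.24 for Kdr and −3.19 for Emcn.

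The secreted protein gene Egfl7 overlapped between the groups. Its level was 10.39, 10.55, 10.30, 10.21 and 10.37 in fibroblasts, against 11.21, 11.41, 10.50, 9.97 and 10.80 in unmanipulated ligament, and the fibroblast values lay within the unmanipulated range. The difference was −0.41 ± 0.27 (limma adjusted p = 0.41), and 0.74 (0.18) in the authors' deposited value table. The reference RNA had lower Egfl7 than either, at 7.57, 8.62 and 8.85 in its Cy5 columns.

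The remaining probes did not pass. Tek was at the floor in 4 of 5 fibroblast columns and above background in 0, against 3 of 5 in unmanipulated ligament, with a difference of −1.29 ± 0.46 (limma adjusted p = 0.067). It passed with every value kept (−1.91, 0.039), with a floor of 25 (−1.89, 0.035) and with array weights (−1.25, 0.0059). Pecam1 was above background in 0 of 5 fibroblast columns and in 3 of 5 of unmanipulated ligament, with a difference of −0.97 ± 0.41 (limma adjusted p = 0.14, and 0.040 with array weights). The first Cdh5 probe was above background in 4 of 5 fibroblast columns, at 6.94 to 7.53, against 1 of 5 in unmanipulated ligament, and its difference of 0.79 ± 0.42 had the opposite sign from that of the second probe, −0.64 ± 0.46 (limma adjusted p = 0.28 and 0.47). In all, 3 of the 9 probes were lower and 0 higher past the threshold, against 9.6% of all 40986 probes tested called in either direction and 4.75% called lower. The same 3 did not overlap between the groups, against 8.73% of all probes lower without overlap. The median over the 9 probes was −0.97, and the median over all probes 0.01.

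Among 22 measured genes of a list of other endothelial genes, 6 were lower in fibroblasts and 0 higher, with a median difference of −0.84. Of all probes, 4.75% were called lower. The adhesion receptor Adgrl4 differed by −4.62 ± 1.01 (limma adjusted p = 0.00080) and the junction protein Esam by −2.91 ± 0.43 (9.8e-07). The transcription factor Erg, the phosphatase Ptprb and the nitric oxide synthase Nos3 were above background in 0 of 5 fibroblast columns, at least 7.82-fold, 12.4-fold and 4.38-fold lower there. The tight junction gene Cldn5, at −1.82 ± 0.61, passed at an adjusted p of 0.045 and missed the threshold with the missing blocks defined by array position (adjusted p = 0.11). Of 5 lymphatic genes, 1 was lower, the chemokine Ccl21 (−6.47 ± 0.86).

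Angiogenic ligands and receptors went both ways in fibroblasts, where 9.6% of all probes were called in either direction. Of 13 measured, Esm1, a proteoglycan secreted by growing endothelium, was higher by 4.35 ± 0.75, and Angpt1 (−2.13 ± 0.51), Angpt2 (−1.41 ± 0.46) and Apln (−1.80 ± 0.53) were lower. Of 4 genes of activated endothelium, the adhesion molecule Icam1 was higher (2.39 ± 0.44). Of 7 arterial and venous genes, Hey1 was higher (1.22 ± 0.41), while the gap junction gene Gja5 was lower (−2.64 ± 0.87) and the receptor Notch1 was at least 2.34-fold lower. The pericyte list had Cspg4 higher (1.01 ± 0.24) and Rgs5 lower (−2.45 ± 0.33) out of 4 measured.

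Genes of other tissue components were lower in fibroblasts as well, and their part in the endothelial differences was not tested. All 5 red blood cell genes, both platelet genes, 8 of 9 skeletal muscle genes, 2 of 5 macrophage genes, 2 of 4 adipocyte genes and 5 of 8 ligament fibroblast genes were lower. The share of all probes called lower was 4.75%. The summed intensity of the platelet genes was 127 to 203 in fibroblasts and 14107 to 33588 in unmanipulated ligament. The ligament marker Tnmd, whose protein is made by mature tendon and ligament cells, was above background in 5 of 5 unmanipulated ligaments at a mean of 12.44 and in 0 of 5 fibroblast columns, so a defining marker of the labelled tissue was not measured in culture. Thbs4, another ligament matrix gene, averaged 10.55 in fibroblasts, against 15.90 in unmanipulated ligament, and Col3a1 was at 15.78 in fibroblasts, against 15.82 in unmanipulated ligament.

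**Figure D2:**
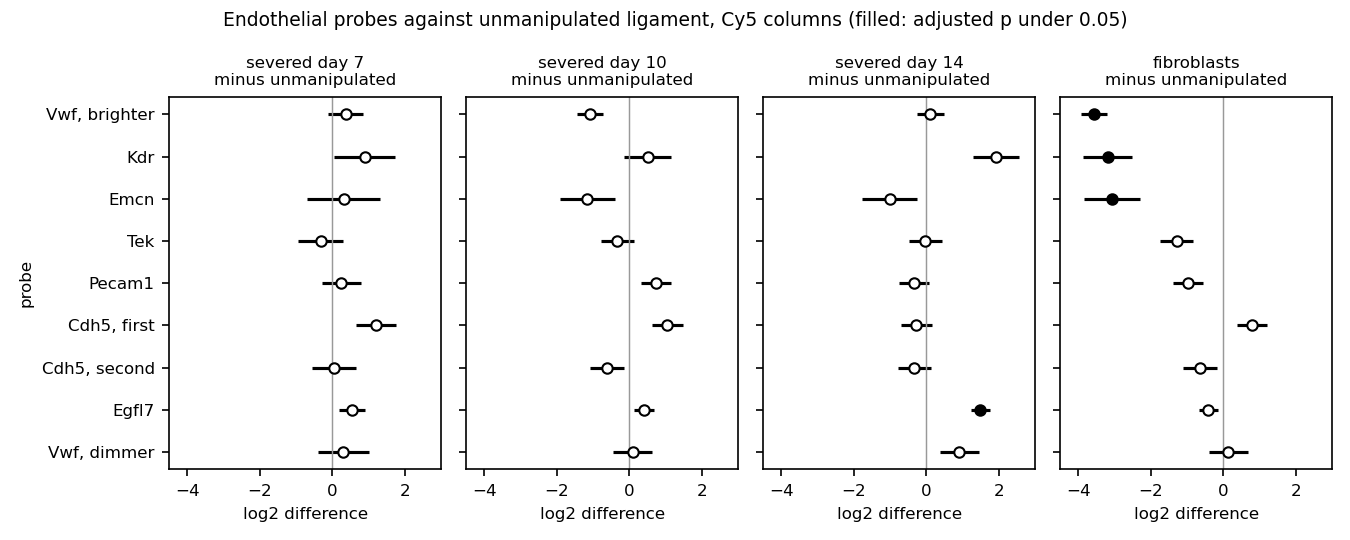
Log2 difference from unmanipulated ligament (horizontal axes, bars are standard errors) for each of the 9 probes (vertical axis), with 1 panel per group, all in Cy5. Filled points passed an adjusted p of 0.05: Vwf, Kdr and Emcn in fibroblasts, and Egfl7 at 1.49 in severed ligament on day 14.

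Relative to unmanipulated ligament, severed ligament on day 14 had higher Egfl7, and Kdr was the probe with the next smallest p. Egfl7 stood at 12.35, 11.80, 12.06, 12.93 and 12.20 in severed ligament on day 14, against 11.21, 11.41, 10.50, 9.97 and 10.80 in unmanipulated ligament, with every severed value above every unmanipulated one. The difference was 1.49 ± 0.27, 2.81-fold higher (limma adjusted p = 0.00031), and 1.42 without unmanipulated replicate 3 and sham day 1 replicate 3 (adjusted p = 0.0020). It passed in 66 of 66 fits that left out 1 column and in 10 of 15 alternatives. It missed the threshold with missing blocks defined by array position (1.42, adjusted p = 0.28), with every value kept (1.25, 0.35), with scaling to the median (0.88, 0.28) and in the authors' deposited value table (0.06, 1).

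Kdr in severed ligament on day 14 was 13.12, 12.58, 12.97, 12.55 and 12.45, against 10.88, 11.16, 10.62, 10.66 and 10.72 in unmanipulated ligament, again with no overlap. The difference of 1.93 ± 0.64, 3.80-fold, did not pass (limma adjusted p = 0.084). The spread of Kdr in the fit was set largely by 1 array, on which the severed and the sham column of day 4 replicate 3 were both at the floor (5.64) while every other ligament column with a value was at 10.33 or above. Without those 2 columns the difference stayed at 1.93, its standard error was 0.30 and its adjusted p 4.8e-05. Leaving out the severed or the sham column of that array alone gave adjusted p-values of 0.021 and 0.017. Kdr also passed with a floor of 100, array weights and the shared array as a block (adjusted p = 0.034, 0.036 and 0.048). With median scaling its difference was 1.32 (adjusted p = 0.31), and it was 0.50 (0.58) in the authors' deposited value table.

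Over the 9 probes, 1 was called on day 14, against 3.14% of all probes, and 2 were above the unmanipulated range without overlap, against 3.14% of all probes. The median of the 9 differences was −0.02, and the median over all probes 0.07. Vwf overlapped with unmanipulated ligament, at 10.47, 9.53, 9.50, 9.41 and 9.58 in severed ligament on day 14, with a difference of 0.11 ± 0.36 from unmanipulated ligament (limma adjusted p = 0.92, and −1.45 in the authors' deposited value table). Emcn was above background in 3 of 5 severed ligaments on day 14, against 5 of 5 unmanipulated ones, with a difference of −1.01 ± 0.76 (limma adjusted p = 0.53). The summed platelet genes were 183 to 8048 in severed ligament on day 14 and 14107 to 33588 in unmanipulated ligament, without overlap, and their part in these differences was not tested. Muscle and red blood cell sums overlapped between the groups.

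In severed ligament on day 10 it was Vwf that lay outside the unmanipulated range. Vwf was 8.96, 9.13, 8.56, 7.71 and 8.18, below all 5 unmanipulated values of 9.33 to 9.98, with a difference of −1.08 ± 0.36 (limma adjusted p = 0.084). It passed with quantiles per colour (−1.25, 0.033), with median scaling (−2.42, 0.00077) and in the authors' deposited value table (−2.64, 6.2e-05). Over all probes these settings, in that order, called 618, 1209 and 5354 higher and 1104, 6677 and 5654 lower. The main fit called 509 higher and 859 lower, so a pass was more common in those settings. Vwf was the 1 of 9 probes lower without overlap, against 2.68% of all probes. Egfl7 (0.41 ± 0.27) and Kdr (0.50 ± 0.64) overlapped with unmanipulated ligament, and their signs turned with the scaling, to −1.42 for Egfl7 with median scaling and to −1.65 for Egfl7 and −1.56 for Kdr in the authors' deposited value table. Of the 9 probes 0 were called on day 10, against 3.34% of all probes, and 2 had an unadjusted p under 0.05. The summed skeletal muscle genes were 3846 to 56815 in severed ligament on day 10, against 109640 to 356260 in unmanipulated ligament, without overlap, and 7 of 9 muscle genes were called lower. The adipocyte sums did not overlap either, at 1089 to 1576 on severed day 10, against 2284 to 2755, and the part of these genes in the differences was not tested.

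On day 7, with 2 severed columns, Egfl7 was 11.43 and 11.21 and Kdr 12.03 and 11.36, against the unmanipulated values given above, and 0 of 9 probes were called, against 0.183% of all probes. Red blood cell sums of severed day 7 lay below the unmanipulated ones, at 62283 to 65427, against 109430 to 159810. So did adipocyte sums (1249 to 1679, against 2284 to 2755) and pericyte sums (9315 to 11030, against 11459 to 14621). Sums of the other endothelial genes lay above (9746 to 11269, against 6286.5 to 9340), as did macrophage sums (3865 to 3940, against 2422 to 3587.5). Their part in the differences was not tested. With days 7, 10 and 14 averaged, the severed difference was 0.81 ± 0.23 for Egfl7 (limma adjusted p = 0.089) and 1.11 ± 0.56 for Kdr (0.52), with 0 of 9 called, against 0.544%. The averaged Egfl7 difference turned sign with median scaling (−0.15) and in the authors' deposited value table (−0.06), and passed with quantiles per colour (0.046) or a floor of 100 (0.035). That of Kdr was 0.14 with median scaling and 0.23 in the value table, and it passed without the day 4 array at the floor (0.026).

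Sham ligaments of days 1 and 4 averaged together gave 0 of 9 calls against unmanipulated ligament (0.0% of all probes called, and 2 of the 9 with an unadjusted p under 0.05). Kdr in sham ligament on day 1 was 10.48, 11.07, 10.53, 11.27 and 10.89, within and around the unmanipulated range. Egfl7 there was 10.88, 11.43, 10.35, 11.10 and 10.83, and it was 11.58, 11.60, 11.64 and 11.13 in the 4 sham columns of day 4 with a value. The day 4 values of Egfl7 overlapped with the unmanipulated range at their lowest column.

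The Cy5 groups can be ordered without a colour difference, except for severed day 2, which the headers give as Cy5 and the labels as Cy3. Its place in each order, and the gaps next to it, rest on the headers. Kdr was highest in severed ligament on day 14 (mean 12.74), followed by severed days 2 (11.82), 7 (11.70) and 10 (11.31), sham day 1 (10.85), unmanipulated ligament (10.81), sham day 4 (9.89, with the array at the floor), fibroblasts (7.62) and reference RNA (7.11). The gap between severed days 14 and 2 exceeded their pooled SD, as did those from sham day 4 to fibroblasts and from fibroblasts to reference, and the other neighbours did not differ beyond their spread. For Egfl7 the order was severed day 14 (12.27), sham day 4 (11.49), severed days 7 (11.32), 10 (11.18) and 2 (10.96), sham day 1 (10.92), unmanipulated ligament (10.78), fibroblasts (10.36) and reference (8.35), with gaps beyond the spread only at its top and bottom. Vwf ran from severed day 7 (9.96) through severed day 14 (9.70), sham day 4 (9.62), unmanipulated ligament (9.59) and sham day 1 (9.58) to severed days 2 (8.82) and 10 (8.51), fibroblasts (6.01) and reference (5.76). Its gaps exceeded the spread between sham day 1 and severed day 2 and between severed day 10 and fibroblasts.

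Severed and sham ligaments of the same day shared arrays but lay in opposite colours, and the colours were swapped between days 1 and 4 and days 7, 10 and 14. The comparison of severed with sham in which a colour difference cancels, over those 5 days, gave 0 of 9 calls (0.0317% of all probes were called). Kdr differed by 0.21 ± 0.33, Egfl7 by −0.09 ± 0.14, Vwf by −0.18 ± 0.20 and Emcn by 0.18 ± 0.40. The dim probes gave −0.42 ± 0.20 for Pecam1, 0.06 ± 0.24 for Tek, and −0.35 ± 0.22 and 0.50 ± 0.26 for Cdh5. Of the 9 probes 1 had an unadjusted p under 0.05, and the smallest adjusted p from limma was 0.99998.

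**Figure D3:**
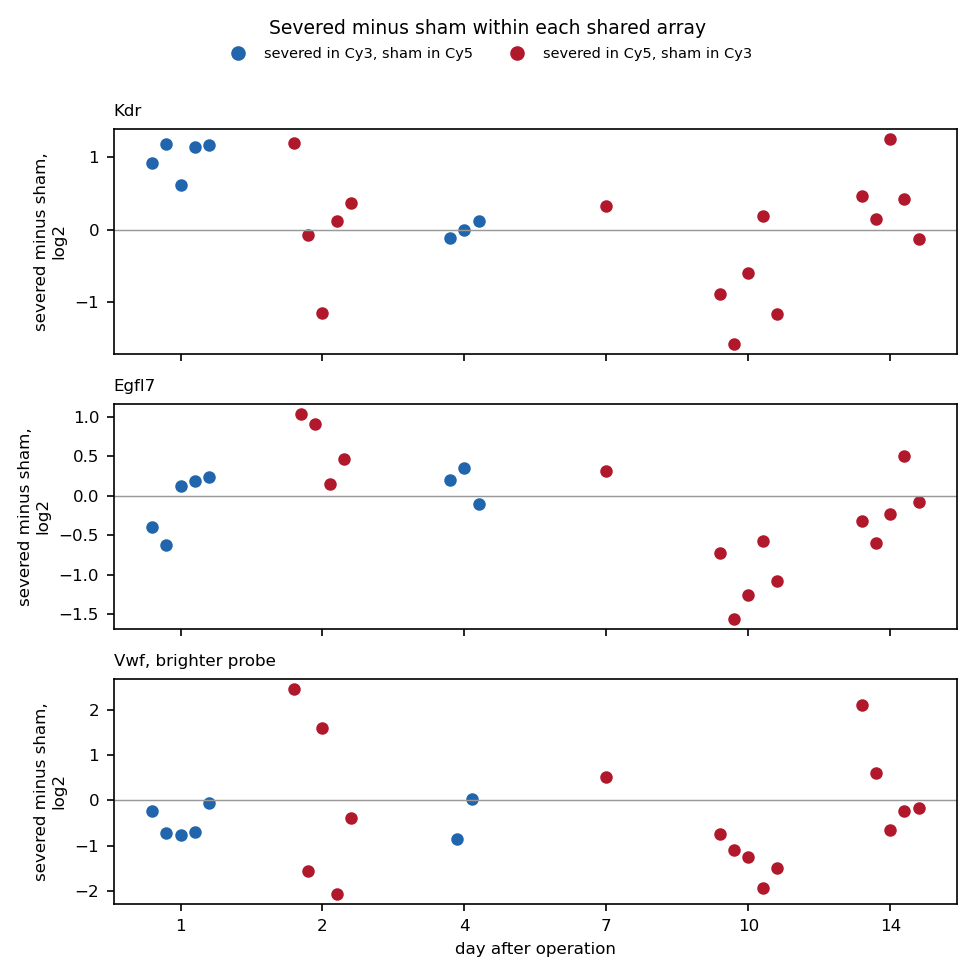
Severed minus sham log2 difference within each shared array (vertical axes) by day after operation (horizontal axis), for the brighter probes. Blue points have the severed sample in Cy3 and red points in Cy5. Kdr is above 0 on 5 of 5 arrays of day 1, where its fitted difference turned sign with median scaling and quantiles per colour, and Vwf and Egfl7 are below 0 on 5 of 5 arrays of day 10.

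On single days some members had 1 sign on all shared arrays, although no member passed the fit on any day (0.0% of all probes were called on days 1, 2, 4, 7 and 10 and 0.00976% on day 14). The share of all probes with 1 sign on all shared arrays was not computed, so the counts of arrays are a description only. On day 1, Kdr in severed ligament was 11.41, 12.26, 11.14, 12.41 and 12.05, against 10.48, 11.07, 10.53, 11.27 and 10.89 in sham ligament. The severed column was the higher on 5 of 5 arrays, by 0.61 to 1.18, with a fitted difference of 1.41 ± 1.05 (limma adjusted p = 1). That fit takes its colour term from the 3 reference arrays alone, and the standard error carries that uncertainty. The fitted Kdr difference was −0.25 with median scaling and −0.07 with quantiles per colour, so its direction on day 1 turned with the scaling. Vwf on day 1 was lower on 5 of 5 arrays, with differences of −0.76 to −0.05. The summed ligament fibroblast genes were 70529 to 204900 in severed ligament on day 1, against 250650 to 291190 in sham ligament, without overlap, and their part was not tested.

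On day 2 the severed column had higher Egfl7 on 4 of 4 arrays, by 0.15 to 1.04, and Kdr differed by −1.14 to 1.19. Sham ligament on day 2 had Kdr at 10.33, 12.32, 13.05, 11.45 and 11.51, the widest range among the sham groups other than day 4. The day 2 headers and labels give opposite colours for these samples, and the headers were followed. On day 4 Pecam1 was lower in the severed column on 4 of 4 arrays, with differences of −1.82 to −0.17. The first Cdh5 probe was lower on 3 of 3 arrays of day 4 (−1.13 to −0.71) and on 5 of 5 of day 14 (−2.65 to −0.22). Both probes lay near background. On day 7, 6 of 9 probes were higher in the 2 severed columns than in the 3 sham columns without overlap, against 16.6% of all probes. Vwf there was 10.20 and 9.72 in severed ligament, against 9.19, 8.95 and 8.86 in sham ligament. The fitted differences on day 7 were 0.90 for Vwf, 0.44 for Egfl7 and 0.37 for Kdr, and −0.45, −0.68 and −0.84 with every value kept. Markers of other tissue components separated the same columns, and their part was not tested. Red blood cell sums were 62283 to 65427 in severed ligament on day 7, against 140320 to 159600 in sham ligament. Muscle sums were 170800 to 184830 in severed ligament, against 217780 to 260480 in sham ligament, and adipocyte sums 1249 to 1679, against 4195 to 4525.

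On day 10 Vwf and Egfl7 were lower in the severed column of every shared array. Vwf was 8.96, 9.13, 8.56, 7.71 and 8.18 in severed ligament, against 9.69, 10.22, 9.79, 9.64 and 9.68 in sham ligament. Egfl7 was 11.48, 10.93, 11.14, 11.27 and 11.09 in severed ligament, against 12.21, 12.49, 12.40, 11.85 and 12.18 in sham ligament. Neither probe overlapped between the groups, and 2 of 9 probes were lower without overlap, against 1.47% of all probes. The severed column was the lower on 5 of 5 arrays for both, with differences of −1.93 to −0.74 for Vwf and −1.56 to −0.58 for Egfl7. Kdr was lower on 4 of 5 arrays, with differences of −1.57 to 0.18.

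The fitted differences on day 10 were −1.36 ± 0.60 for Vwf, −0.98 ± 0.43 for Egfl7 and −1.21 ± 1.05 for Kdr (limma adjusted p = 1 for each). With quantiles per colour they were −0.76 for Vwf, −0.29 for Egfl7 and 0.29 for Kdr, so the direction of Kdr on day 10 turned. Without the colour term Egfl7 passed (−1.04, adjusted p = 0.044) and Vwf did not (−1.30, adjusted p = 0.089), with 0.608% of all probes called. Genes of other tissue components separated the groups on this day as well. The summed skeletal muscle genes were 3846 to 56815 in severed ligament and 95106 to 346370 in sham ligament, and the summed red blood cell genes were 114420 to 188540 in severed ligament and 26705 to 89443 in sham ligament, neither overlapping. Macrophage genes summed to 1803 to 2640 in severed ligament and 2840 to 5595 in sham ligament. Their part in the day 10 differences was not tested.

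By day 14 severed and sham ligament overlapped for Kdr, Egfl7 and Vwf. Kdr was 13.12, 12.58, 12.97, 12.55 and 12.45 in severed ligament, against 12.65, 12.43, 11.72, 12.13 and 12.57 in sham ligament. Egfl7 was 12.35, 11.80, 12.06, 12.93 and 12.20 in severed ligament, against 12.68, 12.41, 12.28, 12.42 and 12.29 in sham ligament. Both operated groups were thus above the unmanipulated values of 10.62 to 11.16 for Kdr and 9.97 to 11.41 for Egfl7, the sham group being in the other colour. The within-array differences were −0.13 to 1.25 for Kdr and −0.60 to 0.51 for Egfl7.

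The change of the severed-sham difference between days 10 and 14, in which the colours cancel, was 1.63 ± 0.52 for Vwf (limma adjusted p = 0.11), 0.89 ± 0.38 for Egfl7 (0.30) and 1.24 ± 0.91 for Kdr (0.71). None of the 9 probes passed, 3 had an unadjusted p under 0.05, and 1.23% of all probes were called. With median scaling all 3 passed, at 3.09 for Vwf (0.0055), 3.70 for Egfl7 (0.0012) and 4.08 for Kdr (0.019). With the shared array as a block Vwf passed (0.033), and so did the first Cdh5 probe, in the other direction (−1.76, 0.045). Over all probes, median scaling called 2651 higher and 177 lower and the array block 1199 and 577, against 402 and 103 in the main fit.

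Between days 7 and 10 the change was −2.26 ± 0.64 for Vwf (limma adjusted p = 0.099), −1.43 ± 0.47 for Egfl7 (0.22) and −1.58 for Kdr (0.84), with 0.549% of all probes called. Vwf passed with median scaling (−3.85, 0.015), array weights (−2.20, 0.0037) and in the authors' deposited value table (−4.06, 0.0012). Egfl7 passed with median scaling (−3.63, 0.025) and in the value table (−3.86, 0.00049), and Kdr in the value table (−4.03, 0.00094). With every value kept the changes were −0.88 for Vwf, −0.17 for Egfl7 and −0.18 for Kdr, and with missing blocks defined by array position that of Vwf was −1.21 (0.84). Between days 1 and 4 none of the 9 passed, 0 had an unadjusted p under 0.05, and 0.0% of all probes were called.

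Days could also be compared within 1 operation and 1 colour, which was added after the values were seen. Egfl7 in severed ligament was higher on day 14 than on day 10 by 1.08 ± 0.27 (limma adjusted p = 0.018), with no overlap between 11.80 to 12.93 on day 14 and 10.93 to 11.48 on day 10. In sham ligament Egfl7 was higher on day 10 than on day 7, whose columns read 10.89, 10.92 and 10.98, by 1.29 ± 0.31 (0.017), and on day 14 by 1.48 ± 0.31 (0.0017). These 3 differences lost the threshold with missing blocks defined by array position (adjusted p = 0.56, 0.59 and 0.30) and with every value kept (0.67, 0.90 and 0.44). The severed difference also lost it with array weights (adjusted p = 0.18) and without severed day 14 replicate 4 (0.92, adjusted p = 0.080), and it was 2.29 with median scaling and 1.70 in the authors' deposited value table, passing in both. The sham difference of days 10 and 7 lost it without any 1 of the 3 sham day 7 columns (adjusted p of 0.053 to 0.078), with median scaling (2.12, 0.28) and in the value table (0.79, 0.95). The sham difference of days 14 and 7 lost it with median scaling (0.71, 1) and in the value table (0.48, 0.84).

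Kdr in severed ligament was above its day 10 range in all 5 columns of day 14, by 1.42 ± 0.64 (limma adjusted p = 0.31, and 0.0050 without the day 4 array at the floor), and Vwf likewise by 1.19 ± 0.36 (0.077). Both passed with median scaling (2.65 for Kdr, adjusted p = 0.047, and 1.78 for Vwf, 0.033), Kdr in the authors' deposited value table (2.06, 0.0078) and Vwf with quantiles per colour (1.37, 0.020). Over all probes these settings, in that order, called 1295, 406 and 911 higher and 316, 1311 and 367 lower, against 488 and 164 in the main fit. In sham ligament Kdr was 12.30, 12.37, 12.24, 11.89 and 11.80 on day 10, against 11.04, 10.98 and 10.75 on day 7, without overlap, with a difference of 1.20 ± 0.74 (limma adjusted p = 0.63). In the comparison of severed days 14 and 10, 3 of 9 probes were higher without overlap, against 1.85% of all probes, and 1 was called, against 1.59%. In that of sham days 10 and 7 it was 3 of 9, against 5.8%, and 1 called, against 1.37%. In that of sham days 14 and 7 it was 3 of 9 higher, against 5.57%, 1 of 9 lower without overlap (the second Cdh5 probe), against 7.35%, and 1 called, against 5.41%.

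Marker sums separated the groups in each of these 3 comparisons. Muscle genes summed to 73201 to 290480 in severed ligament on day 14, against 3846 to 56815 on day 10, without overlap. Red blood cell genes summed to 26705 to 89443 in sham ligament on day 10, against 140320 to 159600 on day 7, without overlap. Adipocyte genes summed to 264 to 3042 in sham ligament on day 14, against 4195 to 4525 on day 7, again without overlap. Their part in these differences was not tested.

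Emcn could be followed only where it was above background. It was detected in 5 of 5 unmanipulated ligaments, in 3 of 5 severed and 4 of 5 sham ligaments on day 1, in 1 of 5 severed and 0 of 5 sham ligaments on day 2, and in both severed columns of day 7 with a value (8.92 and 9.14). Detection went with the array. Of 24 shared arrays with both values, 10 had both columns above background, 9 had neither and 5 had 1. On day 1, for example, both columns of replicate 2 were at the floor. No comparison among ligaments passed for Emcn in the main fit. Severed day 10 against unmanipulated ligament did with median scaling (−2.02, limma adjusted p = 0.020). Severed day 14 against severed day 7 did in the authors' deposited value table (−2.88, 0.017).

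**Figure D4:**
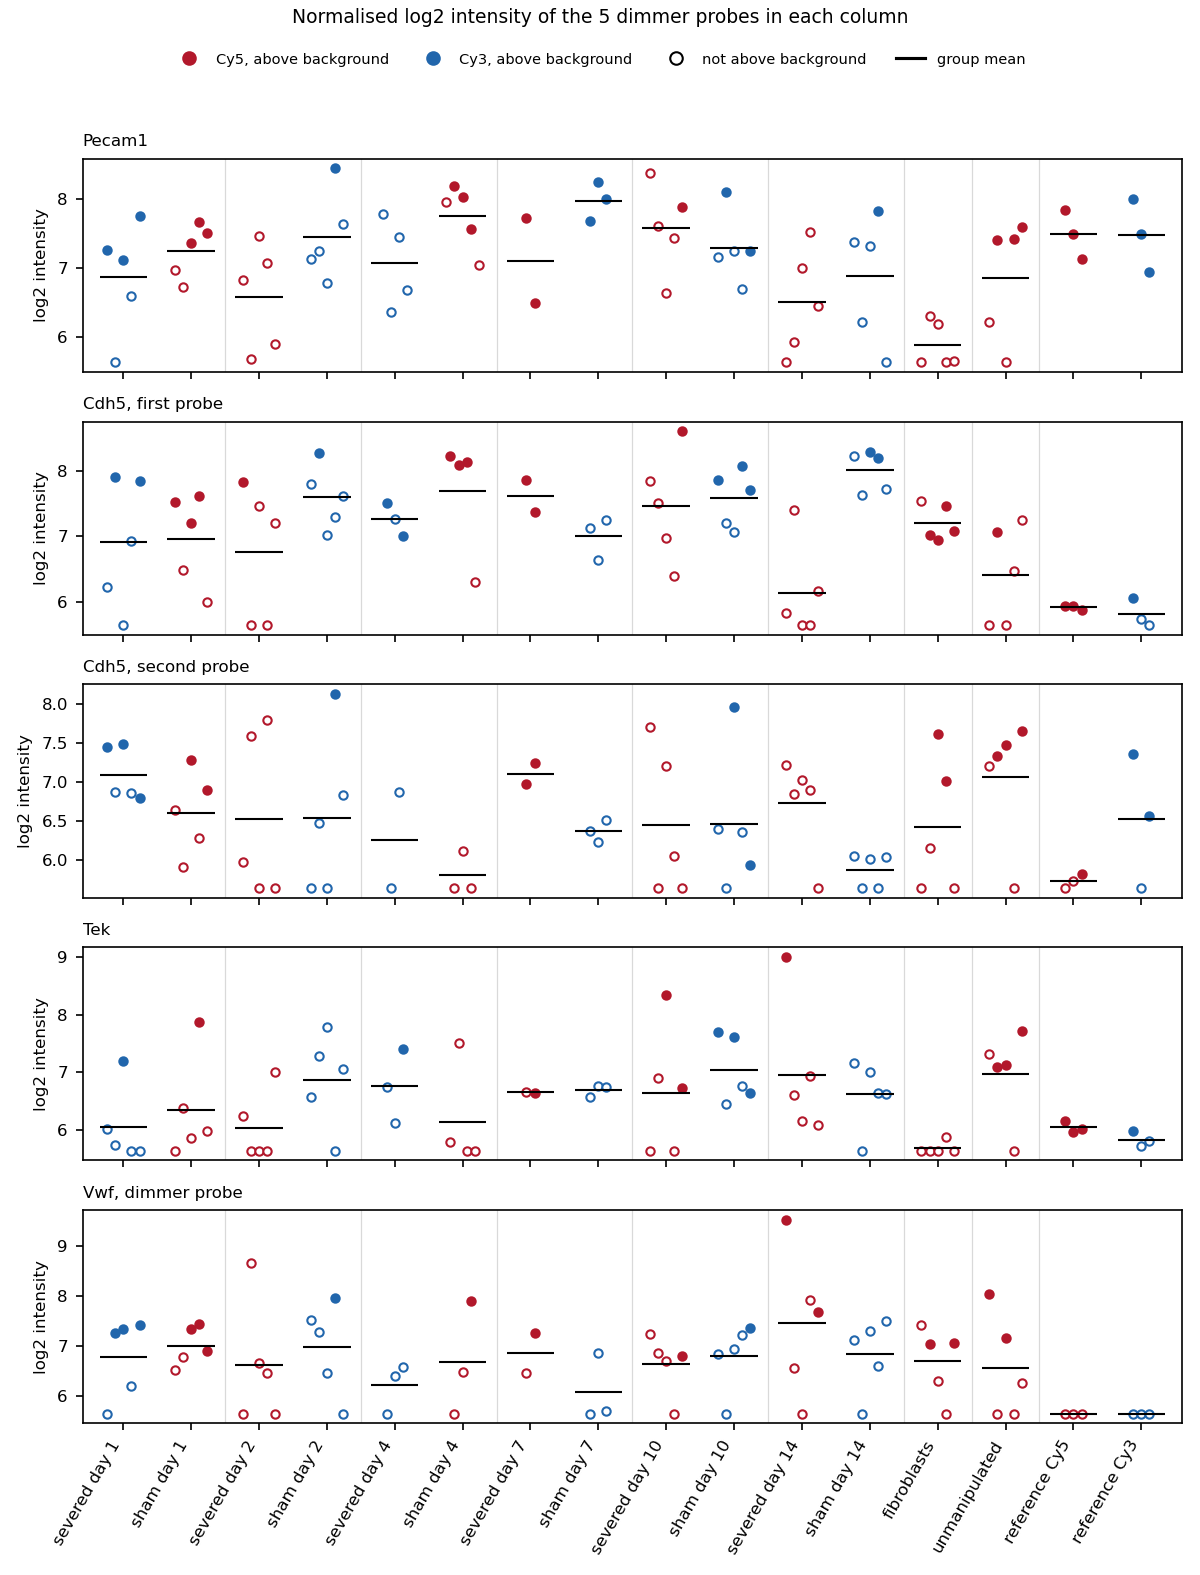
Normalised log2 intensity (vertical axes) of the 5 dimmer probes, for Pecam1, Cdh5 (both probes), Tek and the second Vwf probe, in every column of each group (horizontal axis). Red points are Cy5 and blue points Cy3 columns, open points are not above background, and bars are group means. Most points are open, and Tek is above background in 13 of 57 ligament columns.

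For the junction genes the probes gave no single direction. The first Cdh5 probe on day 14 averaged 6.13 ± 0.74 in severed ligament and 8.01 ± 0.31 in sham ligament (SD, n = 5 each), without overlap, with a fitted difference of −1.98 ± 0.69 (limma adjusted p = 0.78, and 0.0066 without the colour term). It was the 1 of 9 probes lower without overlap on that day, against 1.05% of all probes. The second probe averaged 6.73 ± 0.62 in severed and 5.88 ± 0.21 in sham ligament, with a fitted difference of 1.64 ± 0.75 (limma adjusted p = 1). In severed ligament neither probe was above background in any of the 5 columns, and in sham ligament 2 of 5 columns were for the first probe and 0 of 5 for the second. Pecam1 was above background in 3 of 3 sham ligaments of day 7 (7.68 to 8.24) and in 0 of 5 severed ligaments of days 2 and 14. The reference RNA was above background for Pecam1 in all 6 columns.

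Tek and the dimmer Vwf probe gave few measured values. The highest Tek value was 9.00, in 1 severed ligament of day 14 whose group otherwise lay at 6.08 to 6.94, and the same column held the highest value of the dimmer Vwf probe (9.53) and of the brighter one in its group (10.47). The dimmer Vwf probe was above background in 2 of 5 fibroblast columns and 2 of 5 unmanipulated ligaments, and its difference of 0.14 ± 0.53 (limma adjusted p = 0.93) went against that of the brighter probe.

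Of the vessel gene lists, 1 of 4 measured pericyte genes was called in severed ligament on day 7 and on day 14, against 0.183% and 3.14% of all probes, and the median of the 4 differences was 0.21 and −0.04. Rgs5, a regulator of G protein signalling expressed by pericytes, was higher than in unmanipulated ligament in severed ligament on day 7 by 2.38 ± 0.44 (limma adjusted p = 0.0032) and on day 14 by 2.20 ± 0.33 (2.4e-05), 4.58-fold. Its severed-sham difference rose by 2.11 ± 0.47 between days 10 and 14 (0.0085). That of the receptor gene Notch4, from a list of 7 measured arterial and venous genes, rose by 2.53 ± 0.69 (0.047). In that comparison 1.23% of all probes were called. Angpt1, the ligand of Tek, was higher in severed ligament on day 14 than on day 10 by 1.87 ± 0.51 (0.041). It comes from a list of 13 measured angiogenic genes, and 1.59% of all probes were called there. Angpt1 missed the threshold with the missing blocks defined by array position (0.054).

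Against unmanipulated ligament the other vessel gene lists gave no call in severed ligament on day 14. Of the 22 other endothelial genes, 0 passed against unmanipulated ligament (median difference −0.21), with Calcrl at 0.50 ± 0.42 and Nos3 at −1.44 ± 0.51 as the extremes. None of 13 angiogenic ligands and receptors passed, with Apln at 1.55 ± 0.53 and Angpt2 at −1.21 ± 0.46. None of 5 lymphatic genes, 4 genes of activated endothelium or 7 arterial and venous genes passed either. In the colour-balanced comparison of severed with sham ligament, the pericyte proteoglycan Cspg4 was lower (−0.57 ± 0.12, limma adjusted p = 0.044), and 0 of 22 other endothelial genes passed. That comparison called 0.0317% of all probes. With every value kept it called none, so the Cspg4 call was lost there.

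Across the means of the 13 ligament groups and the fibroblasts, the genes most like each member by Pearson's r, given as a description over 14 groups that share arrays and normalisation, differed between members. Vwf went with Podxl (0.943) and Cd93 (0.938), Kdr with Kcnj8 (0.893) and Rpl23 (0.880), and Egfl7 with Zbtb8a (0.887) and Nr4a3 (0.878). Emcn went with Ctnnal1 (0.902) and Agtr1a (0.897), Tek with Kcnab1 (0.894) and RGD1309362 (0.859), Pecam1 with Eogt (0.907) and Smarcd2 (0.860), and Cdh5 with Adra1b (0.868) and Sdc3 (0.856). Between the members themselves the highest r was 0.741, for Emcn and Vwf.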

How the data were processed

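Intensities were read from the authors' deposited table of foreground minus background per spot, made for BRB Array Tools per the series' design text, with 1 column per sample and colour. The spot flags beside each column served only to find columns of 1 array, whose flags were identical. The deposited value table holds the authors' log2 values of the same columns and served as an alternative, since its scale and centring are not given in the sources used here. The aligning of spots and the scanner settings are not given there either. No further value column was left unused (0). The Cy5 reference columns exceed the scanner range, so they had been rescaled in a way no source states.

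Windows of 500 consecutive rows whose rank correlation with the other columns was under 0.3 were set missing (363 windows in 11 columns). Columns with over 50% missing were left out of the quantile target, a choice made after seeing values. Intensities were quantile-normalised, floored at 50 and log2-transformed, and probes above 100 in at least 3 columns were tested (40986). Of distinct probes, 45.2% had a gene name. A linear model with 15 groups and a colour term was fitted by least squares with limma 3.58.1 in R 4.3.3 (moderated variances, Benjamini-Hochberg adjustment over all tested probes, threshold 0.05), and tested on simulated data. Tables were made in Python 3.11.15 with pandas 2.3.3 and numpy 2.4.6, and plots with matplotlib 3.10.9.

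Groups and replicate numbers came from the labels. The 3 sham columns of day 7 differed by more than noise and were kept as 3. All 7 genes with all probes are described. Of each list, members past the threshold are named, or otherwise the extremes, and lists use each gene's brightest probe. A probe above background in no column of a group is given as at least N-fold, against the higher of its own value and the lowest value measured above background in each column. That lowest value is a mean over the spots of a probe with any spot above background. It can lie under the background limit, so N is an estimate. The genes and lists were chosen with earlier results of these data known. The number of arrays limits precision. Alternatives changed the normalisation, floor, filter, windows, colour term, array weights, shared array or replicate as a block, and left out columns.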

Additional observations from a re-analysis of the deposited data

Results flagged for a closer look

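In 14 of 96 groups of 4 to 10 columns 1 member value lay far from the others. How many to expect by chance was not estimated, since some of these groups held values at the floor and columns share arrays. Emcn was at 5.64 in sham day 1 replicate 2 and in sham day 4 replicate 3, below 8.60 to 9.00 and 9.24 to 9.38 in the other columns of those groups, and at 6.99 in sham day 2 replicate 5, where the others were at 5.64. Kdr was at 5.64 in sham day 4 replicate 3, against 11.21 to 11.37 in the others, and the severed column of the same array was also at 5.64. Tek in that sham column was at 7.51, above the others at 5.64 to 5.80. Vwf (brighter probe) was at 8.96 in sham day 1 replicate 5, 10.22 in sham day 10 replicate 2 and 10.47 in severed day 14 replicate 1. Egfl7 was at 11.13 in sham day 4 replicate 5, and the first Cdh5 probe in the same column at 6.30, below the others at 8.10 to 8.22. The second Cdh5 probe was at 5.64 in severed day 14 replicate 5 and in unmanipulated replicate 4. Tek was at 7.19 in severed day 1 replicate 3 and at 5.89 in fibroblast column 4.

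The severed-sham difference of means had opposite signs on different days, with every severed column on 1 side of every sham column, for 3 probes. For Vwf it was 0.96 on day 7 and −1.30 on day 10, and for Egfl7 0.39 on day 7 and −1.04 on day 10. The change between these days, tested in the fit, gave adjusted p-values from limma of 0.099 and 0.22. For the first Cdh5 probe it was 0.62 on day 7 and −1.88 on day 14, and that change was not tested.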

How the results depend on the processing

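The lower Vwf, Kdr and Emcn of cultured fibroblasts kept direction and call under each of the 15 alternatives that apply to them. Over 207 member results and 16875 values (17 alternatives and 66 fits that each left out 1 column), 23 lost the threshold, 57 passed it newly, 5 reversed and 371 changed sign without a call on either side. The reversed ones were, against unmanipulated ligament, Egfl7 on severed day 10 (−1.42 with median scaling, −1.65 in the authors' deposited value table), Kdr on severed day 10 (−1.56 in that table) and Vwf on severed day 14 (−1.45 in that table), and Egfl7 on severed day 14 minus day 7 (−1.36 in that table). The causes were not tested.

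Member probes called numbered 3 for fibroblasts, 5 with array weights and 4 with a floor of 25 or every value kept. For severed days 7, 10 and 14 against unmanipulated they were 0, and 1 with a floor of 100, with quantile normalisation per colour, or without both day 4 columns of replicate 3. For days 14 against 10 of the severed-sham difference they were 0, 3 with median scaling and 2 with the shared array as a random block. For single days they were 0, 2 without the colour term, and 1 without it under array-position windows. Leaving out 1 column gave 3 to 4 for fibroblasts and 0 to 0 for the others.

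All-probe counts moved more. The colour-balanced count of 13 became 0 with every value kept, 37 with a floor of 100, 53 with the shared array as a block, 2 without both day 4 columns of replicate 3, and 1 each with a floor of 25, median scaling and the value table. The single-day count of 4 became 541 with array weights, 1714 and 2126 without the colour term (with and without array-position windows), 0 with every value kept, 22 and 2 with floors of 100 and 25, 1108 with median scaling, 2026 with quantiles per colour, 76 with the array block and 23 in the value table. The count of 0 for days 4 against 1 became 2 with a floor of 100 or the array block, 1 with median scaling or without unmanipulated 3 and sham day 1 replicate 3, and 9 in the value table. The count of 505 for days 14 against 10 became 813 with array weights, 22 with every value kept, 820 and 334 with floors of 100 and 25, 2828 with median scaling, 1776 with the array block and 129 in the value table. The count of 223 for late severed ligament became 774, 84, 408, 2550, 441, 1096 and 100 with array weights, every value kept, a floor of 100, median scaling, quantiles per colour, the value table, and without those 2 near-identical columns. The early sham count of 0 became 2 with array weights, array-position windows (with or without the colour term) or quantiles per colour, 7 and 3 with floors of 100 and 25, 74 with median scaling, 62 in the value table, and 1 with the brightest probe per gene, the array block, without both day 4 columns of replicate 3 or without the near-identical columns. The fibroblast count of 3936 became 8386 with array weights, 1807 with every value kept, 6617 with median scaling and 10765 in the value table. Leaving out 1 column gave 2 to 19, 2 to 12, 0 to 1, 367 to 726, 106 to 275, 0 to 4 and 3252 to 4097 in the same order. The median over all probes was −0.12 with median scaling and 0.67 in the value table for severed day 10 (main value 0.06), 0.59 in the value table for fibroblasts (0.01), −0.40 there for severed day 14 (0.07), and −0.76, −0.24 and −0.40 there for the day comparisons of severed 14 and 10, sham 10 and 7, and sham 14 and 7 (0.00, 0.06 and 0.03). Calls that were higher made up 15.3% with median scaling against 37.2% on severed day 10, 25.5% with median scaling and 4.73% in the value table against 52.1% on severed day 14, and 88.7% in the value table against 50.6% for fibroblasts.

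Replicate numbers were not taken as pairs, since 3 of 27 same-numbered severed and sham columns correlated under 0.1 in their deviations, all 3 on different arrays. Columns of 1 shared array did correlate, with an estimate of 0.303. The main fit does not hold the shared array, and the alternative with the shared array as a block does. The replicate block, a fit on same-numbered differences, holds no colour term, so 2 choices change at once. With it the colour-balanced count was 1, the single-day count 3232 and the count for days 14 against 10 was 705, and with array-position windows as well they were 30, 3045 and 819. In that fit 1 member probe was called on a single day, the first Cdh5 probe on day 14 (−1.88, limma adjusted p = 0.026, against 0.0066 without the colour term alone). The alternatives with array-position windows, without the day 4 columns of replicate 3 and without the near-identical columns were chosen after seeing the data. Signal near background limits Tek, Pecam1, Cdh5 and the dimmer Vwf probe, whose differences may not be detectable here.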

Other observations

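Rgs5, Cspg4, Icam1 and Erg moved between days in comparisons not described above. The severed-sham difference of Rgs5 fell by 2.66 on the log2 scale between days 7 and 10 (SE 0.59, limma adjusted p = 0.011). That of the pericyte gene Cspg4 rose by 1.70 (SE 0.42, 0.038). Both come from a list of 4 measured pericyte genes, and 0.549% of all probes were called in that comparison. In sham ligament Icam1, an adhesion molecule of activated endothelium, was lower on day 14 than on day 10, with a difference of −1.80 ± 0.44 (limma adjusted p = 0.011). So was the transcription factor Erg, at −1.43 ± 0.41 (0.033). Icam1 was the 1 of 4 measured genes of activated endothelium called there, and Erg the 1 of 22 other endothelial genes. The share of all probes called between these sham days is not given here.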
